A study of Mus musculus with 6 samples.

Results

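The comparison described here sets a sort of basal epithelial cells of the mouse submandibular salivary gland against the whole epithelium of the same gland, both from untreated mice. The cells were chosen by library and by quality: a barcode needed at least 500 detected genes, at most 20% mitochondrial RNA and 1 hashtag antibody that named its mouse. This gave 3189 cells of the basal sort and 2165 cells of the whole epithelium, together 5354 of the 7507 cells that pass these filters in all 3 libraries of the series. No cell barcode was shared between both libraries.

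All mice were wild-type C57BL/6J females of 8 to 10 weeks. Glands were dissociated with enzymes and sorted by surface antibodies. The whole epithelium was gated as EpCAM+ and the basal sort as EpCAM+ and Cd49f-high, where Cd49f is the protein of Itga6. Dead cells and cells positive for Cd3, Cd16, Cd32, Cd31 or Cd45 had been gated out of both. RNA molecules were counted in droplets as unique molecular identifiers (UMIs), tagged at the 3' end of each transcript, so a level is a number of molecules and does not grow with gene length. Each group was 1 droplet library that pooled 3 mice, so library and group cannot be told apart. The replicate is the mouse, and UMIs were summed per mouse (n = 3 against 3).

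Basal cells of a salivary duct sit on the basement membrane beneath the luminal cells, carry the keratins Krt5 and Krt14 and the transcription factor p63, and are studied as a source of new duct cells. Acinar cells, the saliva makers, and the granular, striated and intercalated ducts make up most of the rest of the gland. Receptors and ligands set which signals a cell can hear and send, transcription factors hold its identity, and the secretory and ion-pumping cells of the gland are known for many mitochondria.

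UMIs per mouse ran from 10012747 to 18958923 in the sort and from 12645629 to 15657092 in the whole epithelium. The median mitochondrial share of a cell, a sign of RNA quality and also of mitochondrial content, was 4.87% ± 0.330 in the sort and 9.51% ± 0.462 in the whole epithelium (mean ± SD of 3 mice). Barcodes without a hashtag call were left out, 998 (22.6%) in the sort and 1778 (43.4%) in the whole epithelium, and summed acinar markers stood at 223126 CPM in those of the whole epithelium against 92942 CPM in its called cells. Levels are in CPM, counts per 1000000 UMIs, scaled per mouse with the TMM method, which takes the bulk of genes as balanced. The acinar sums just given lack that scaling. So do the levels of Fas, Mucl2 and Pip that are set side by side for several classes of the whole library. With total UMIs as the scale instead, the median log2 difference of all genes moved from -0.01 to 0.54, so smaller falls than that depend on the scale.

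The 4 markers given for the basal sort were all higher in it. Their genes lie, in build GRCm38, at chr15:101707069-101712905 (Krt5), chr11:100203162-100207510 (Krt14), chr19:47646341-47692042 (Col17a1) and chr16:14705852-14709395 (Snai2). Krt5 stood at 466, 420.3 and 497 CPM in the 3 sort mice and at 6.28, 13.1 and 13.0 CPM in the 3 mice of the whole epithelium. Krt14 stood at 3339.6, 2489.8 and 3558 CPM against 36.0, 106 and 86.2 CPM. For Col17a1, a hemidesmosome collagen, the levels were 42.8, 37.1 and 44.2 CPM against 0.796, 1.51 and 0.754 CPM, and for Snai2, a transcription factor of the Snail family, 119, 96.0 and 153 CPM against 2.12, 3.34 and 1.51 CPM. For none of the 4 genes did the groups overlap, and the log2 fold changes were 5.41 ± 0.26, 5.36 ± 0.38, 5.30 ± 0.19 and 5.70 ± 0.26 (± SE; edgeR adjusted p = 1.4e-07, 1.5e-06, 4.9e-08 and 1.2e-07). The gated gene Itga6 itself differed less, at 169, 142 and 154 CPM against 87.5, 75.5 and 75.4 CPM, a log2 fold change of 0.96 ± 0.10 (edgeR adjusted p = 1.9e-05). Epcam, on which both gates rest, stood at 1302 ± 119 CPM in the sort and 1168 ± 55.9 CPM in the whole epithelium, with overlapping mice. With a limit of 10% mitochondrial UMIs per cell, Krt5 and Krt14 both had a log2 fold change of 4.55.

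In the comparison over all cells, 4792 of 12950 genes were higher in the sort (37.0%) and 4760 were lower (36.8%; edgeR quasi-likelihood test, Benjamini-Hochberg adjusted p under 0.05). Beyond a 2-fold difference, 2093 genes were higher (16.2%) and 1857 lower (14.3%). On the scale of total UMIs the split was 7056 higher and 2676 lower of the same 12950 genes. That is 72.5% of calls higher in place of 50.2%. Because so many genes pass, a share of a gene family near the share over all genes says nothing of that family. The same holds for list counts and medians on the scale of total UMIs, where the median over all genes was 0.54. Genes named per list as rising or falling had to lack overlap between the groups, so that lack is no further evidence for them. In sums over cells, more cells of a type and more RNA per cell cannot be told apart, and "rose" and "fell" below mean higher and lower in the sort. Of the named genes Mucl2, a mucin-like saliva protein, had the largest difference in level, at 167 ± 24.4 CPM against 250005 ± 8668 CPM (log2 fold change -10.55 ± 0.12, edgeR adjusted p = 7.3e-11). Its fold moved with the processing, to -7.22 with cells thinned to 2000 UMIs and -11.84 with a limit of 10% mitochondrial UMIs per cell. Krt17, a keratin of basal and wounded epithelium, stood at 2202 ± 362 against 57.3 ± 22.2 CPM, and the proteoglycan gene Dcn at 2068 ± 461 against 143 ± 84.3 CPM (log2 fold changes 5.27 and 3.85).

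Clusters built from the cells, named after markers, showed what each library held. Basal duct-like cells were 81.7% ± 1.67 of the sort and 2.40% ± 0.508 of the whole epithelium. They carried 86.2% ± 2.72 of all UMIs of the sort and 1.64% ± 0.377 of those of the whole epithelium. A share of a gene's UMIs near these percentages says nothing of that gene. The rest of the sort was mainly myoepithelial-like (226 cells), endothelial-like (119), intercalated duct-like (117, of which 72 from sort mouse 2) and cycling (106). These 4 classes carried 4.87%, 1.01%, 2.00% and 5.16% of its UMIs. The whole epithelium held mainly granular duct-like (612), ionocyte-like (514), intercalated duct-like (494) and acinar-like cells (232). They carried 27.0%, 13.9%, 10.2% and 38.8% of its UMIs, and the shares of genes by class given below are to be read against these. Summed endothelial markers ranged over 61.7 to 137 CPM in the sort mice and 19.98 to 48.6 CPM in the whole mice, and all 8 tested rose. Pecam1 encodes Cd31, on which the sort gated such cells out, and it stood at 13.3 ± 4.11 CPM in the sort and 3.73 ± 1.28 CPM in the whole epithelium. Summed myoepithelial markers ranged over 418 to 925 against 7.54 to 73.4 CPM, with all 5 tested higher and Oxtr at 0 in the whole epithelium. In the fibroblast list 1 of 2 tested members rose (Dcn) and 1 fell, with Lum at 0 in the sort. Of the immune list both tested members rose, at sums of 5.81 to 8.08 against 2.73 to 6.69 CPM, and Ptprc was at 0 in the sort. No fibroblast-like cells were found in the sort, and 86.5% of its Dcn UMIs lay in basal duct-like cells. In the whole epithelium 41.7% of Dcn lay in the 13 fibroblast-like cells, and without those and the endothelial-like cells the log2 fold change of Dcn was 4.62.

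**Figure D1:**
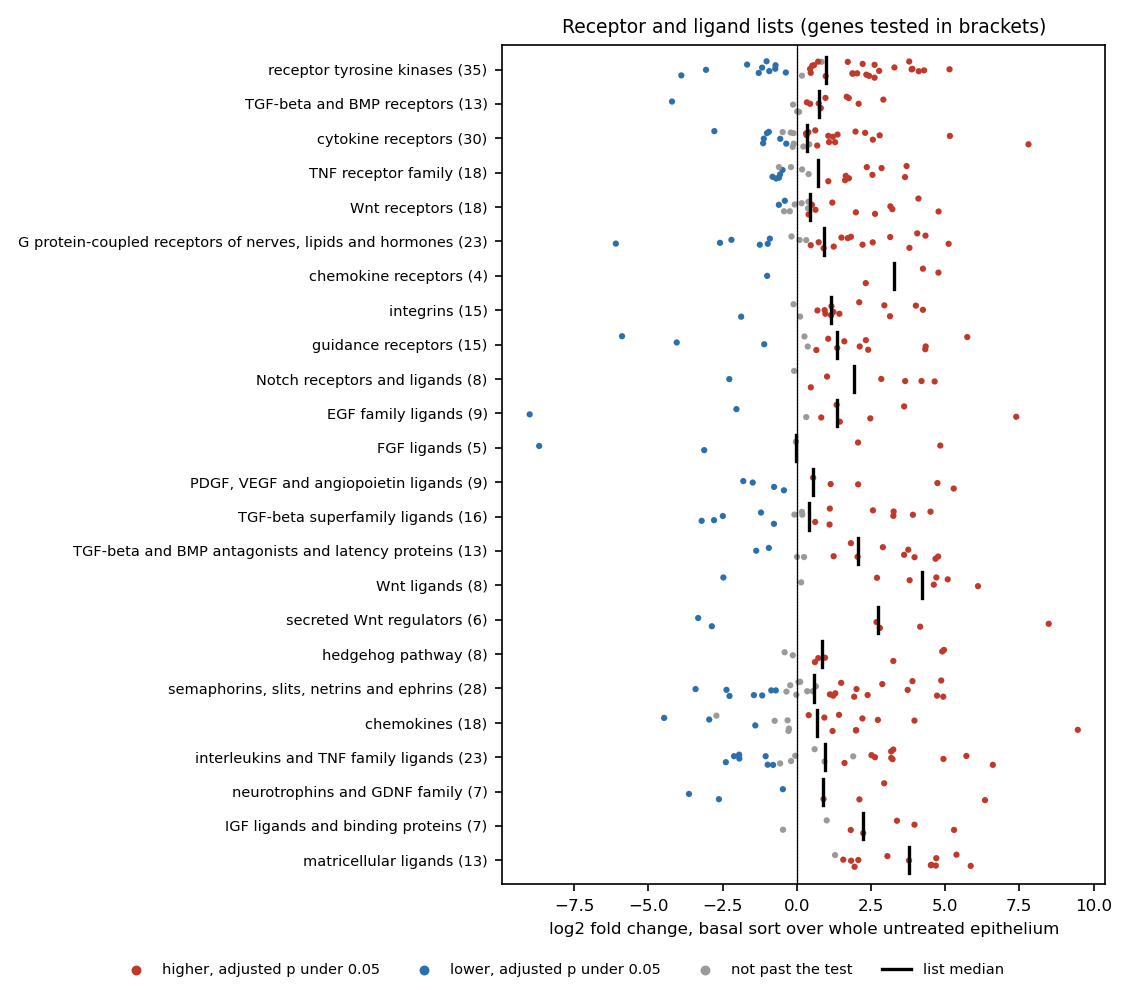
Log2 fold change of every tested gene of the receptor and ligand lists, basal sort over whole untreated epithelium, 1 row a list with the number tested in brackets. Points are genes, red higher and blue lower at an adjusted p under 0.05, grey not past the test, and black bars are list medians, which reach 4.21 in the Wnt ligands.

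Receptors leaned to the sort. Of 179 receptor genes tested, 112 rose and 37 fell, with a median log2 fold change of 0.90, against a median of -0.01 over all genes tested. Among the receptor tyrosine kinases, which pass growth factor signals on by phosphorylation, 23 of 35 rose and 10 fell (median 0.97). Fgfr1, a receptor of fibroblast growth factors, stood at 90.6, 77.3 and 93.0 CPM in the sort mice and at 4.33, 5.33 and 3.58 CPM in the whole mice. Every sort mouse lay far above every whole mouse, with a log2 fold change of 4.29 ± 0.14 (edgeR adjusted p = 3.7e-08). Of the Fgfr1 UMIs of the sort 83.8% lay in basal duct-like cells, near the 86.2% of all UMIs that these cells held there. The neurotrophin receptor gene Ntrk3 rose too, from 1.15, 1.59 and 1.51 CPM in the whole mice to 22.1, 17.6 and 23.8 CPM in the sort mice, without overlap (log2 fold change 3.90 ± 0.19, edgeR adjusted p = 1.7e-07). Myoepithelial-like cells held 50.04% of the Ntrk3 UMIs of the sort, and the log2 fold change without such cells was 3.17. Discoidin receptor Ddr1, a collagen sensor, had 49.8 ± 0.441 against 44.2 ± 1.18 CPM and did not pass the test (log2 fold change 0.17 ± 0.07, edgeR adjusted p = 0.053). It passed with total UMIs as the scale (log2 0.72, edgeR adjusted p = 2e-05) and with at most 10% mitochondrial UMIs per cell (0.27, adjusted p = 0.023). It also passed without cycling cells (adjusted p = 0.039) and without endothelial-like and fibroblast-like cells (adjusted p = 0.032).

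Other kinases fell. Kit, the stem cell factor receptor that marks intercalated ducts, stood at 2.48, 11.5 and 2.27 CPM in the sort mice and at 46.0, 34.5 and 43.0 CPM in the whole mice. Sort mouse 2 was the highest of its group yet lay below all whole mice, and Kit fell by 3.06 ± 0.48 on the log2 scale (edgeR adjusted p = 0.00028). That mouse held 72 of the 117 intercalated duct-like cells of the sort, and those cells carried 85.4% of the Kit UMIs there. Without it the log2 fold change was -4.12. Erbb3, a receptor of neuregulins, fell from 31.0 ± 1.83 to 12.9 ± 2.45 CPM (log2 fold change -1.28 ± 0.13, edgeR adjusted p = 1.8e-05).

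Receptors of the TGF-beta and BMP family, which restrain epithelial growth and steer matrix production, rose in 9 of 13 cases and fell in 1. The type 2 receptor Tgfbr2 stood at 41.3 ± 4.79 against 9.77 ± 0.562 CPM and the co-receptor Tgfbr3 at 35.7 ± 2.89 against 4.72 ± 0.717 CPM (log2 fold changes 2.08 ± 0.12 and 2.92 ± 0.13). The co-receptor Eng, known from blood vessels, is a different case: 91.7% of its UMIs in the sort lay in endothelial-like cells. Eng stood at 9.43, 4.84 and 9.67 CPM against 1.15, 4.22 and 1.70 CPM, with a log2 fold change of 1.75 ± 0.42 (edgeR adjusted p = 0.0037). It was 2.49 without whole mouse 2, which held 11 of the 19 endothelial-like cells there, and 0.83 with an adjusted p of 0.11 where cells could hold at most 10% mitochondrial UMIs.

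Cytokine receptors split, with 16 of 30 higher and 7 lower (median 0.36, and 7.81 in the highest member, which is not named here). Of those named here Il18r1, which binds interleukin 18, rose most. It stood at 71.7, 61.6 and 68.9 CPM in the sort mice against 1.95, 2.15 and 1.51 CPM in the whole mice. The groups lay wide apart, with a log2 fold change of 5.16 ± 0.14 (edgeR adjusted p = 1.3e-08). Of the Il18r1 UMIs, 92.0% in the sort and 66.2% in the whole epithelium lay in basal duct-like cells, against 86.2% and 1.64% of all UMIs. Its ligand gene Il18 rose as well, at 18.5 ± 0.778 against 2.02 ± 0.452 CPM (log2 fold change 3.18 ± 0.16, edgeR adjusted p = 2.2e-07). Osmr, the oncostatin M receptor, stood at 30.4 ± 2.71 against 4.33 ± 1.48 CPM (log2 fold change 2.79 ± 0.20). The prolactin receptor Prlr went the other way, at 6.43, 5.08 and 4.78 CPM against 31.7, 39.8 and 41.8 CPM (log2 fold change -2.78 ± 0.15, edgeR adjusted p = 3.4e-07). In the whole epithelium 61.2% of its UMIs lay in acinar-like cells.

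Of the TNF receptor family, whose members carry death, survival and inflammatory signals, 9 of 18 rose and 5 fell. Scaled by total UMIs, 10 rose and 0 fell, where 7056 of all 12950 genes rose and 2676 fell. Its most abundant riser was Tnfrsf12a, the receptor of the cytokine TWEAK, at 954, 902 and 1247 CPM against 367, 296 and 326 CPM. No mice overlapped, and the log2 fold change was 1.65 ± 0.13 (edgeR adjusted p = 3.6e-06). Fas, the death receptor, stood at 79.3, 86.2 and 81.4 CPM against 12.8, 9.63 and 11.7 CPM, with a log2 fold change of 2.86 ± 0.11 (edgeR adjusted p = 6.1e-08). Basal duct-like cells of the whole epithelium carried Fas at 102 CPM of the class's own UMIs, against 13.4 in granular duct-like cells.

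Wnt signals reach a cell through Frizzled receptors, and the Lgr proteins amplify them. In this list 10 of 18 rose and 2 fell (median 0.45). Lgr6, known from epithelial stem cells of skin, stood at 16.1, 15.2 and 14.6 CPM against 0.177, 0.875 and 0.565 CPM, and the more widespread Lgr4 at 50.8 ± 5.81 against 12.8 ± 2.08 CPM (log2 fold changes 4.78 ± 0.28 and 1.99 ± 0.13). Notch receptors and ligands, which act between touching cells, rose in 6 of 8 cases and fell in 1 (median 1.93). The receptor Notch1 stood at 50.4 ± 3.20 against 7.02 ± 1.36 CPM, and its ligands Jag1, Jag2 and Dll1 had log2 fold changes of 3.65, 4.20 and 4.65. Without whole mouse 3 the value of Jag2 was 4.79. The lower member was Notch3, at 1.04 ± 0.379 against 4.90 ± 0.580 CPM (log2 fold change -2.28 ± 0.29, edgeR adjusted p = 7.5e-05), with 50.3% of its UMIs in the whole epithelium in intercalated duct-like cells. Of 8 hedgehog pathway genes tested 6 rose and none fell, among them the transcription factor Gli3 at 10.6 ± 1.69 against 0.349 ± 0.153 CPM (log2 fold change 4.90).

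G protein-coupled receptors of nerves, lipids and hormones rose in 14 of 23 cases and fell in 6. Protease-activated receptors were among the risers: F2r, the thrombin receptor, stood at 31.8, 23.1 and 29.9 CPM against 1.06, 0.796 and 0.565 CPM. F2r did not overlap between groups and had a log2 fold change of 5.12 ± 0.22 (edgeR adjusted p = 9.5e-08), while its relative F2rl1 stood at 41.7 ± 11.6 against 7.11 ± 1.91 CPM (2.56 ± 0.24). The prostaglandin E receptor gene Ptger4 had a log2 fold change of 4.06 ± 0.30. The alpha-adrenergic receptor Adra1a had 0.174, 0.403 and 0.284 CPM in the sort mice and 18.1, 18.1 and 20.2 CPM in the whole mice, and the beta-adrenergic receptor Adrb1 4.74 ± 1.99 against 27.5 ± 4.78 CPM. Their log2 fold changes were -6.0995 ± 0.22 and -2.59 ± 0.24 (edgeR adjusted p = 4.5e-08 and 1e-05). Granular duct-like and ionocyte-like cells together held most Adra1a UMIs of the whole epithelium, 45.3% and 32.8%.

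**Figure D2:**
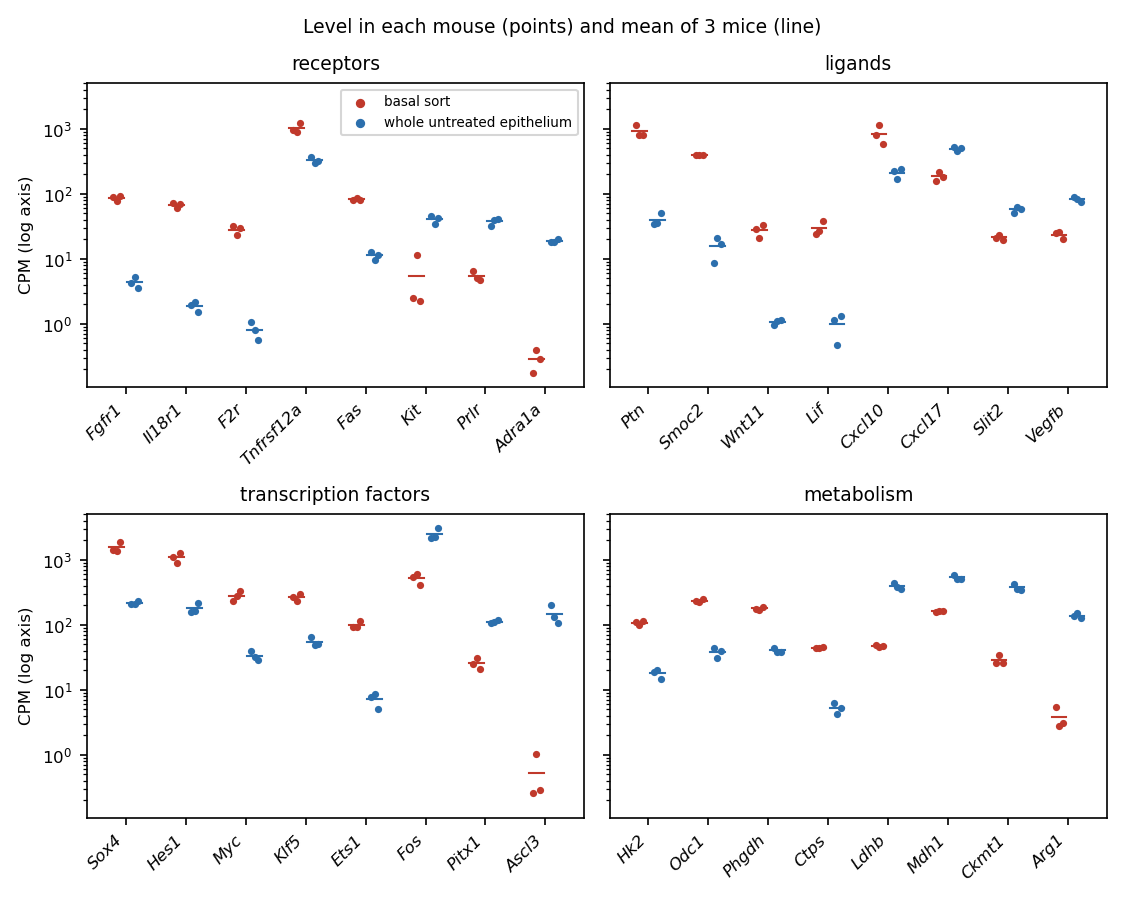
Level in each mouse (CPM, log scale) of 8 receptors, 8 ligands, 8 transcription factors and 8 metabolic genes, with the 3 mice of the basal sort in one colour and the 3 of the whole untreated epithelium in the other. The mice of the groups do not overlap in these genes, which the naming rule required of genes named per list as rising or falling. Sort mouse 2 lies apart from the other sort mice in Kit.

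Chemokine receptors were few, with 4 tested, 3 higher and 1 lower, or 3 and 0 when scaled by total UMIs. The scavenging receptor Ackr4, which removes chemokines of lymph node homing, stood at 12.1, 11.5 and 10.3 CPM against 0.177, 0.557 and 0.471 CPM (log2 fold change 4.77 ± 0.26). Ackr3, another scavenger, stood at 29.7, 11.05 and 21.0 CPM against 0.265, 2.39 and 0.471 CPM, with a log2 fold change of 4.25 ± 0.56 (edgeR adjusted p = 8.9e-05). Its value leaned on minor cells: 78.5% of the UMIs in the sort lay in myoepithelial-like cells, and the log2 fold change was 2.60 without them. It was 5.79 without whole mouse 2 and 6.20 without endothelial-like and fibroblast-like cells.

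Integrins, the receptors that hold cells to the matrix, rose in 12 of 15 cases and fell in 1 (median 1.17). Itgb4, the partner of the gated Itga6 in hemidesmosomes, stood at 99.3, 109 and 99.2 CPM against 38.1, 36.2 and 39.4 CPM (log2 fold change 1.43 ± 0.08, edgeR adjusted p = 4.5e-07). Itgb1 had a log2 fold change of 1.23 ± 0.12 and Itgav one of 2.10 ± 0.13. Itgb6, the epithelial activator of TGF-beta, was the member that fell, from 23.1 ± 1.78 to 6.14 ± 1.91 CPM (log2 fold change -1.88 ± 0.19), and 56.1% of its UMIs in the whole epithelium lay in granular duct-like cells. Guidance receptors, best known from growing axons, rose in 10 of 15 cases and fell in 3. The Slit receptors Robo2 and Robo1 stood at 53.4, 46.4 and 45.9 CPM and 31.8, 25.3 and 26.0 CPM in the sort mice. The whole mice had 1.33, 0.637 and 0.754 CPM of Robo2 and 0.531, 1.83 and 1.70 CPM of Robo1, so neither gene overlapped between groups (log2 fold changes 5.74 ± 0.19 and 4.34 ± 0.26, edgeR adjusted p = 3.2e-08 and 5.9e-07).

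The gene of Slit2 itself, a Robo ligand, fell from 58.2 ± 6.16 to 21.4 ± 2.04 CPM (log2 fold change -1.45 ± 0.11, edgeR adjusted p = 2.1e-06), and 73.7% of its UMIs in the whole epithelium came from granular duct-like cells. Plxna4, a semaphorin receptor, was lower too, at 2.77 ± 0.400 against 46.9 ± 11.95 CPM (log2 fold change -4.05 ± 0.22), with 61.9% of its UMIs there in ionocyte-like cells. Nrp1, a receptor of semaphorins and of vascular growth factors, rose by 2.12 ± 0.44 on the log2 scale (edgeR adjusted p = 0.0017), from 1.503, 5.41 and 1.04 CPM to 13.9, 8.87 and 12.6 CPM. Most of its UMIs were those of endothelial-like cells, 71.9% in the sort and 81.2% in the whole epithelium. The Nrp1 value was 3.19 without whole mouse 2 and 4.82 without endothelial-like and fibroblast-like cells.

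**Figure D3:**
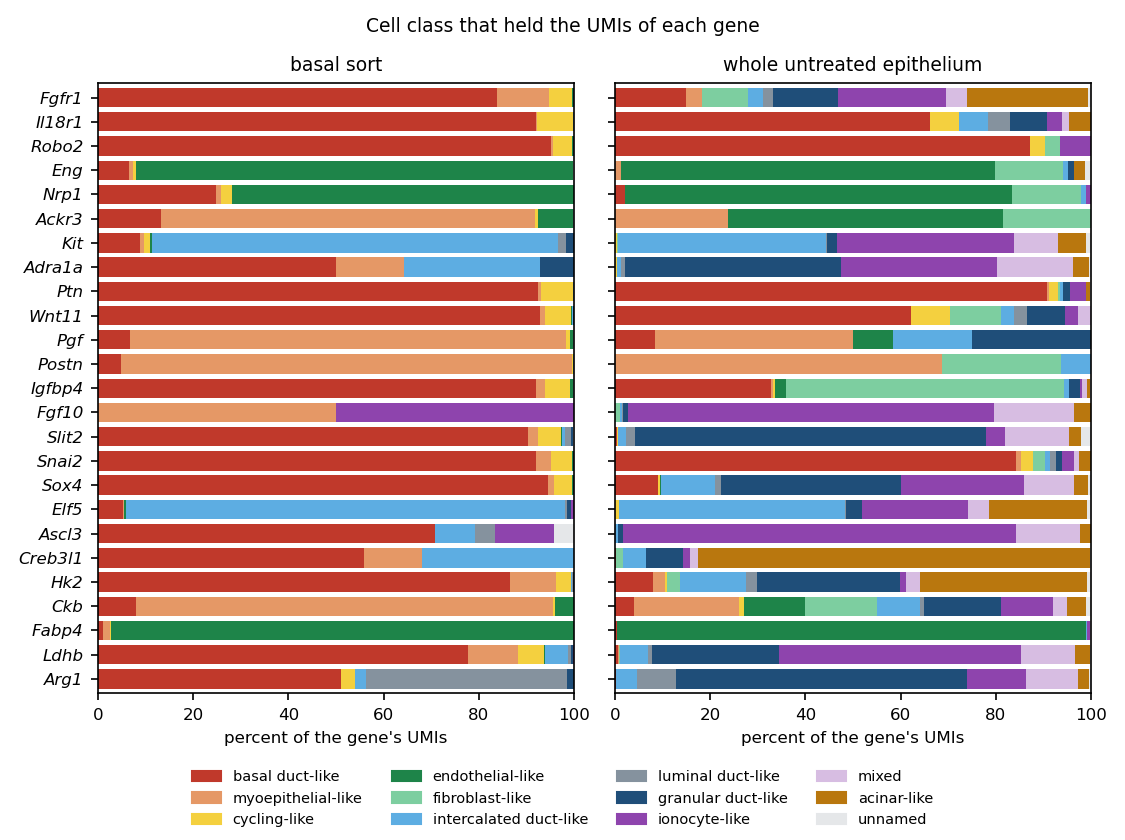
Share of each gene's UMIs (percent) that each cell class carries, for 25 genes named in the text, 1 panel per library. Basal duct-like cells carry most bars of the sort, 83.8% for Fgfr1, near their 86.2% of all UMIs of the sort. In that library Eng and Nrp1 lie mostly in endothelial-like cells, Postn, Pgf and Ckb in myoepithelial-like cells, and Kit in intercalated duct-like cells.

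Ligands leaned further to the sort than receptors did in their median, with 100 of 170 tested genes higher and 38 lower (median 1.29). Matricellular ligands, which sit in the matrix and modulate adhesion and growth, rose in 12 of 13 cases, and none fell (median 3.78). Ptn, the heparin-binding growth factor pleiotrophin, stood at 1156, 809 and 819 CPM in the sort mice and 34.0, 35.3 and 51.2 CPM in the whole mice. The lowest sort mouse thus stood well above the highest whole mouse (log2 fold change 4.53 ± 0.21, edgeR adjusted p = 1.3e-07), and basal duct-like cells held 92.5% of its UMIs in the sort and 90.8% in the whole epithelium. Its relative midkine, Mdk, had 109 ± 11.7 against 4.16 ± 1.16 CPM, and Ccn1, a matrix protein induced by YAP, 1739 ± 399 against 209.6 ± 43.7 CPM (log2 fold changes 4.70 ± 0.17 and 3.05 ± 0.19). Ccn4, a Wnt-inducible member of the same family, had a log2 fold change of 5.38 ± 0.25.

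Periostin, Postn, was of another kind: 94.8% of its UMIs in the sort lay in the 226 myoepithelial-like cells. It had 18.1, 5.32 and 11.9 CPM in the sort mice and 0, 1.27 and 0 CPM in the whole mice, of which mouse 2 alone held the 4 myoepithelial-like cells of that library. The log2 fold change was 4.68 ± 0.77 (edgeR adjusted p = 0.00038) and 10.49 without whole mouse 2, where the gene was at 0 in both others. Without myoepithelial-like cells Postn was too low to be tested.

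Wnt ligands rose in 6 of 8 cases and fell in 1, with a median of 4.21. Wnt11 stood at 29.4, 21.1 and 33.5 CPM against 0.973, 1.11 and 1.13 CPM and Wnt10a at 54.8 ± 4.22 against 2.21 ± 0.736 CPM (log2 fold changes 4.70 ± 0.24 and 4.62 ± 0.18). Their groups did not overlap, and Wnt6 and Wnt5a had log2 fold changes of 5.09 and 3.80. Wnt4 was the exception, the most abundant of the list and lower in the sort, at 41.3, 53.7 and 39.4 CPM against 289.6, 239 and 217 CPM. Its log2 fold change was -2.48 ± 0.15 (edgeR adjusted p = 6.3e-07), and granular duct-like cells held 54.7% of its UMIs in the whole epithelium.

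Proteins that bind or hold TGF-beta and BMP ligands outside the cell rose in 9 of 13 cases and fell in 2 (median 2.05). Smoc2, a secreted calcium-binding matrix protein, stood at 400.4, 401 and 396 CPM against 8.66, 21.0 and 17.1 CPM, with a log2 fold change of 4.67 ± 0.27 (edgeR adjusted p = 4.8e-07). The 3 sort mice were almost equal. The activin antagonist Fst varied more, at 106, 44.4 and 117 CPM against 2.56, 5.41 and 12.2 CPM (log2 fold change 3.76 ± 0.49, and 4.44 without whole mouse 3). Of the ligands themselves 8 of 16 rose and 5 fell: Bmp7 stood at 22.8 ± 2.46 against 1.48 ± 0.605 CPM and Tgfb2 at 221 ± 15.3 against 103 ± 7.88 CPM (log2 fold changes 3.91 ± 0.22 and 1.10 ± 0.09).

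EGF family ligands, which bind Egfr and its relatives, rose in 6 of 9 cases and fell in 2. Egf, a product of the granular ducts, had 0.217, 0.564 and 0.512 CPM in the sort mice and 125, 316 and 187 CPM in the whole mice (log2 fold change -9.003 ± 0.47, edgeR adjusted p = 2.6e-07). Hbegf, the heparin-binding member, went up instead, at 323 ± 57.6 against 119 ± 23.1 CPM (log2 fold change 1.45 ± 0.17). For Nrg1, a neuregulin, 588 UMIs were counted in the sort and 2 in the whole epithelium, both in whole mouse 3, a ratio of 191 of their scaled levels (95% interval 52.7 to 1583, counting error only). The fitted log2 fold change of 7.39 ± 0.55 depends on the few whole counts and was 10.42 without whole mouse 3 and 6.79 without whole mouse 2.

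Fibroblast growth factors showed no common direction, with 2 of 5 higher and 2 lower (median -0.03, and 0.52 with total UMIs as the scale). Fgf10, which drives salivary gland budding in the embryo, had 2 UMIs in the sort and 660 in the whole epithelium, 507 times as many by scaled level (95% interval 140 to 4196, counting error only). Ionocyte-like cells carried 77.0% of those 660. The fitted log2 fold change was -8.68 ± 0.35 and -9.33 without myoepithelial-like cells. Among the vascular growth factors 5 of 9 rose and 4 fell. Vegfb fell from 82.1 ± 6.25 to 23.5 ± 3.05 CPM (log2 fold change -1.80 ± 0.11). Pgf, placental growth factor, rose from 0.177, 0.557 and 0.283 CPM to 18.8, 8.14 and 14.1 CPM, with 91.7% of the sort's UMIs in myoepithelial-like cells (log2 fold change 5.29 ± 0.46, and 2.70 without those cells). Pdgfb had 20.1, 13.7 and 20.1 CPM against 0.354, 0.478 and 1.22 CPM, a log2 fold change of 4.74 ± 0.32, with 5.38 without whole mouse 3 and 5.56 without endothelial-like and fibroblast-like cells.

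Insulin-like growth factors and the proteins that bind them rose in 5 of 7 cases, and none fell. Igfbp2 had 125, 58.5 and 111 CPM against 1.15, 4.62 and 1.51 CPM and Igfbp4 112, 122.98 and 106 CPM against 3.01, 19.7 and 9.70 CPM (log2 fold changes 5.30 ± 0.43 and 3.37 ± 0.44). Myoepithelial-like cells held 50.7% of the Igfbp2 UMIs of the sort. In each gene whole mouse 2 was the highest of its group, and without it the values were 6.19 for Igfbp2 and 4.15 for Igfbp4. Fibroblast-like cells held 58.3% of the Igfbp4 UMIs of the whole epithelium, and without them and the endothelial-like cells its log2 fold change was 4.70. Ntng1, a netrin-related membrane protein, rose to 35.7 ± 4.59 from 1.15 ± 0.408 CPM (log2 fold change 4.93 ± 0.21).

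Interleukins and TNF family ligands rose in 10 of 23 cases and fell in 7. The leukemia inhibitory factor Lif, a ligand of the interleukin 6 family, stood at 24.3, 26.5 and 38.5 CPM against 1.15, 0.478 and 1.32 CPM (log2 fold change 4.94 ± 0.30, edgeR adjusted p = 6.3e-07). Ltb, lymphotoxin beta, stood at 10.02 ± 2.07 against 1.02 ± 0.504 CPM (log2 fold change 3.25 ± 0.30). Il34, a growth factor of macrophages, was lower, at 3.29 ± 0.365 against 14.2 ± 2.09 CPM (log2 fold change -2.12 ± 0.16, and -3.37 without myoepithelial-like cells).

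Chemokines, which call leukocytes, rose in 10 of 18 cases and fell in 3 (median 0.66). Cxcl10, induced by interferon, had 805, 1149.7 and 589 CPM in the sort mice and 224, 170.0 and 242 CPM in the whole mice. The groups did not overlap although the sort mice differed among themselves (log2 fold change 1.999 ± 0.23, edgeR adjusted p = 3.5e-05). In the sort, basal duct-like cells held 90.9% of the Cxcl10 UMIs and 86.2% of all UMIs. Cxcl2, a neutrophil attractant, had 50.5, 28.1 and 71.0 CPM against 14.2, 4.78 and 13.8 CPM (log2 fold change 2.21 ± 0.40, edgeR adjusted p = 0.00076). That call rests on the hashtag rule: where a mouse was named by a share of hashtag UMIs instead, the log2 fold change of Cxcl2 was -0.24 (edgeR adjusted p = 0.81). The share rule kept only 89, 829 and 91 cells of whole mice 1, 2 and 3, in place of 717, 771 and 677. Cxcl17, a mucosal chemokine, and Ccl28, which draws antibody-making cells to secretory glands, were lower, at 187 ± 31.5 against 494 ± 34.8 CPM and 0.516 ± 0.337 against 10.8 ± 2.06 CPM (log2 fold changes -1.40 ± 0.13 and -4.47 ± 0.33).

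NF-kB is a factor family known for switching such chemokines on, and its part in the chemokine values was not tested. In the list of Irf, Stat and NF-kB factors 7 of 19 genes rose and 9 fell. Nfkb1 stood at 127, 127 and 131 CPM against 33.1, 27.5 and 28.6 CPM, with a log2 fold change of 2.11 ± 0.09 (edgeR adjusted p = 1.1e-07), and Rel, Rela and Nfkb2 had 1.5997, 1.14 and 1.12. The promoters of the 2 chemokines above are shown because both hold the letters of an NF-kB site. They are the 250 bases before the transcription start (RefSeq, build GRCm38.p6, 5' to 3' on the gene's strand), of Cxcl2 at chr5:90903649-90903898 on the plus strand and of Cxcl10 at chr5:92348890-92349139 on the minus strand. Capitals mark matches to GGG, 2 bases of any kind, TT, 1 base of any kind and CC, searched on both strands.
Cxcl2: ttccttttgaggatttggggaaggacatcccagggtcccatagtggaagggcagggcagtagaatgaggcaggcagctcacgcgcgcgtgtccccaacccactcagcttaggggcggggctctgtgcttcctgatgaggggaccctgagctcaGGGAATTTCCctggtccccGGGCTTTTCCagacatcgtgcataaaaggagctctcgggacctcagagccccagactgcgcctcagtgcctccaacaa
Cxcl10: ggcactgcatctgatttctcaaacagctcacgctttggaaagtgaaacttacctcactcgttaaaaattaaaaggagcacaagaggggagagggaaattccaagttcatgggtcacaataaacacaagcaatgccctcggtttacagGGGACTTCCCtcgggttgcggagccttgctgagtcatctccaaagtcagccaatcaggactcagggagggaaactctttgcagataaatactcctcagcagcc
Cxcl2 has 2 matches, the first at 97 to 88 bases before the start, and Cxcl10 has 1, at 103 to 94 bases before it. The motif is in 1350 of 32851 promoters of the table (4.11%) and in 7 of 16 promoters (43.8%) of the 13 tested chemokine genes it lists. A match is a description of these letters and no evidence of binding. Of the genes whose promoter holds it, Ccl19, Cxcl1, Cxcl2, Cxcl9 and Cxcl10 rose, Ccl9 fell and Ccl20 did not pass the test.

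Of 274 transcription factor genes tested, 150 rose and 80 fell (median 0.50). Trp63, the gene of p63 and the factor that defines basal epithelium, stood at 32.6, 30.8 and 23.7 CPM against 0.177, 0.955 and 0.942 CPM (log2 fold change 5.37 ± 0.30, edgeR adjusted p = 3.7e-07). Of the 6 tested genes of its list, with its relatives and the AP-2 factors, 4 rose and 1 fell. Sox factors rose in 7 of 12 cases and fell in 3. Sox4, tied to progenitor growth, was the most abundant riser among them, at 1434, 1390.2 and 1869 CPM against 209, 210.3 and 234 CPM, with no overlap and a log2 fold change of 2.84 ± 0.12 (edgeR adjusted p = 1e-07). Sox9, a factor of ducts and of gland progenitors, fell slightly, from 324, 296 and 331 CPM to 232, 175 and 276 CPM (log2 fold change -0.48 ± 0.15, edgeR adjusted p = 0.016). With total UMIs as the scale Sox9 stood 0.07 higher and did not pass (edgeR adjusted p = 0.68). The call was also lost at a limit of 10% mitochondrial UMIs per cell (-0.39, adjusted p = 0.054) and where a barcode's hashtag share set its mouse (-0.27, adjusted p = 0.11).

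Effectors and targets of the Hippo, Wnt and Notch pathways were among the risers. Tead and Tcf/Lef factors with their co-activators YAP and TAZ, the end points of the Hippo and Wnt pathways, rose in 12 of 13 cases, and none fell (median 1.51). Tead1 stood at 101 ± 13.0 against 14.3 ± 1.74 CPM, Yap1 at 57.6 ± 3.44 against 20.3 ± 1.73 CPM and Wwtr1, the gene of TAZ, at 98.4 ± 6.997 against 32.3 ± 4.47 CPM. These 3 had log2 fold changes of 2.82 ± 0.13, 1.51 ± 0.09 and 1.61 ± 0.11, and Lef1 one of 4.28 ± 0.26. Hes1, the standard Notch target, stood at 1105, 908 and 1285 CPM against 159, 163 and 216 CPM, and Myc, a growth regulator, at 232, 278 and 338 CPM against 39.9, 31.9 and 29.1 CPM. Neither gene overlapped between the groups (log2 fold changes 2.61 ± 0.16 and 3.07 ± 0.17, edgeR adjusted p = 6.1e-07 and 3.4e-07). Both belong to the bHLH factors, of which 20 of 36 rose and 10 fell.

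Ets factors rose in 15 of 20 cases and fell in 4. Ets1 stood at 92.8, 91.9 and 114 CPM against 7.87, 8.60 and 4.99 CPM (log2 fold change 3.79 ± 0.18, edgeR adjusted p = 1.3e-07). Secretory members were among the falls: Spdef, a factor of mucous cells, at 0.747 ± 0.249 against 12.8 ± 2.02 CPM and Elf5, a factor of milk-making and other secretory epithelium, at 4.43, 19.0 and 3.47 CPM against 82.9, 83.0 and 96.8 CPM (log2 fold changes -4.16 ± 0.25 and -3.39 ± 0.49). Sort mouse 2, with most of the intercalated duct-like cells, was the highest sort mouse in Elf5, and the value was -4.47 without it. Kruppel-like factors rose in 9 of 13 cases and fell in 3, with Klf5, a factor of proliferating basal layers, at 268 ± 31.5 against 54.6 ± 8.44 CPM and Klf15 at 2.19 ± 0.271 against 11.9 ± 1.88 CPM (log2 fold changes 2.29 ± 0.13 and -2.46 ± 0.18). Runx1 stood at 262 ± 21.6 against 81.6 ± 4.59 CPM (log2 fold change 1.68 ± 0.10) in a list of Gata and Runx factors that rose in 4 of 5 cases.

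Homeobox factors had no common direction, 14 of 32 higher and 9 lower (median -0.07, and 0.48 with total UMIs as the scale). Tgif1, a repressor of TGF-beta responses, rose to 442 ± 73.8 from 179 ± 12.01 CPM, while Barx2 and Pitx1 fell, to 10.8 ± 6.45 from 90.5 ± 5.598 CPM and to 25.6 ± 4.60 from 111 ± 6.08 CPM (log2 fold changes 1.30 ± 0.12, -3.13 ± 0.31 and -2.12 ± 0.13). None of 39 Hox genes reached the level needed for a test. The ionocyte factors Foxi1 and Ascl3 had 0.174, 0.0806 and 0.0569 CPM and 0.261, 1.05 and 0.284 CPM in the sort mice against 61.3, 62.6 and 65.2 CPM and 199, 134 and 108 CPM in the whole mice. Bhlha15, the factor of acinar secretion, had 4 UMIs in the sort and 498 in the whole epithelium, and Creb3l1, of the same secretory programme, 25 and 692. The log2 fold changes of Foxi1, Ascl3, Bhlha15 and Creb3l1 were -9.02 ± 0.18, -8.30 ± 0.39, -7.41 ± 0.38 and -5.38 ± 0.21. Being fitted to a handful of UMIs, they moved with single mice, to -9.70 (Foxi1 without sort mouse 1), -9.06 (Ascl3 without sort mouse 2), and -6.67 and -8.60 (Bhlha15 without sort mouse 1 and sort mouse 3).

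AP-1, Atf and C/EBP factors rose in 21 of 44 cases and fell in 18. Scaled by total UMIs, 26 rose and 9 fell (median 0.77, against 0.54 over all genes). Fos, an immediate early gene that tissue dissociation is known to induce, fell from 2169.8, 2249 and 3118 CPM in the whole mice to 536, 606 and 417 CPM in the sort mice, while Fosl1 rose to 184 ± 40.9 from 27.7 ± 3.83 CPM (log2 fold changes -2.27 ± 0.17 and 2.74 ± 0.17, edgeR adjusted p = 2.1e-06 and 8.1e-07). Myoepithelial-like cells held 41.2% of the Fos UMIs of the sort, and its value was -2.89 without them. Irf, Stat and NF-kB factors rose in 7 of 19 cases and fell in 9 (median -0.30). With total UMIs as the scale 9 rose and 3 fell (median 0.25, against 0.54 over all genes). Beside the NF-kB genes given above, Irf7 and Irf1, of the interferon response, fell to 13.0 ± 0.444 from 54.6 ± 8.72 CPM and to 60.8 ± 17.3 from 145 ± 13.6 CPM (log2 fold changes -2.07 ± 0.12 and -1.25 ± 0.19). Nuclear receptors rose in 10 of 31 cases and fell in 13 (median -0.01). With total UMIs as the scale 15 rose and 10 fell (median 0.54, like that of all genes). Rora was higher at 60.6 ± 3.47 against 10.99 ± 1.51 CPM and Esrra, an activator of mitochondrial genes, was lower at 10.7 ± 2.57 against 52.2 ± 3.98 CPM (log2 fold changes 2.46 ± 0.11 and -2.30 ± 0.16).

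**Figure D4:**
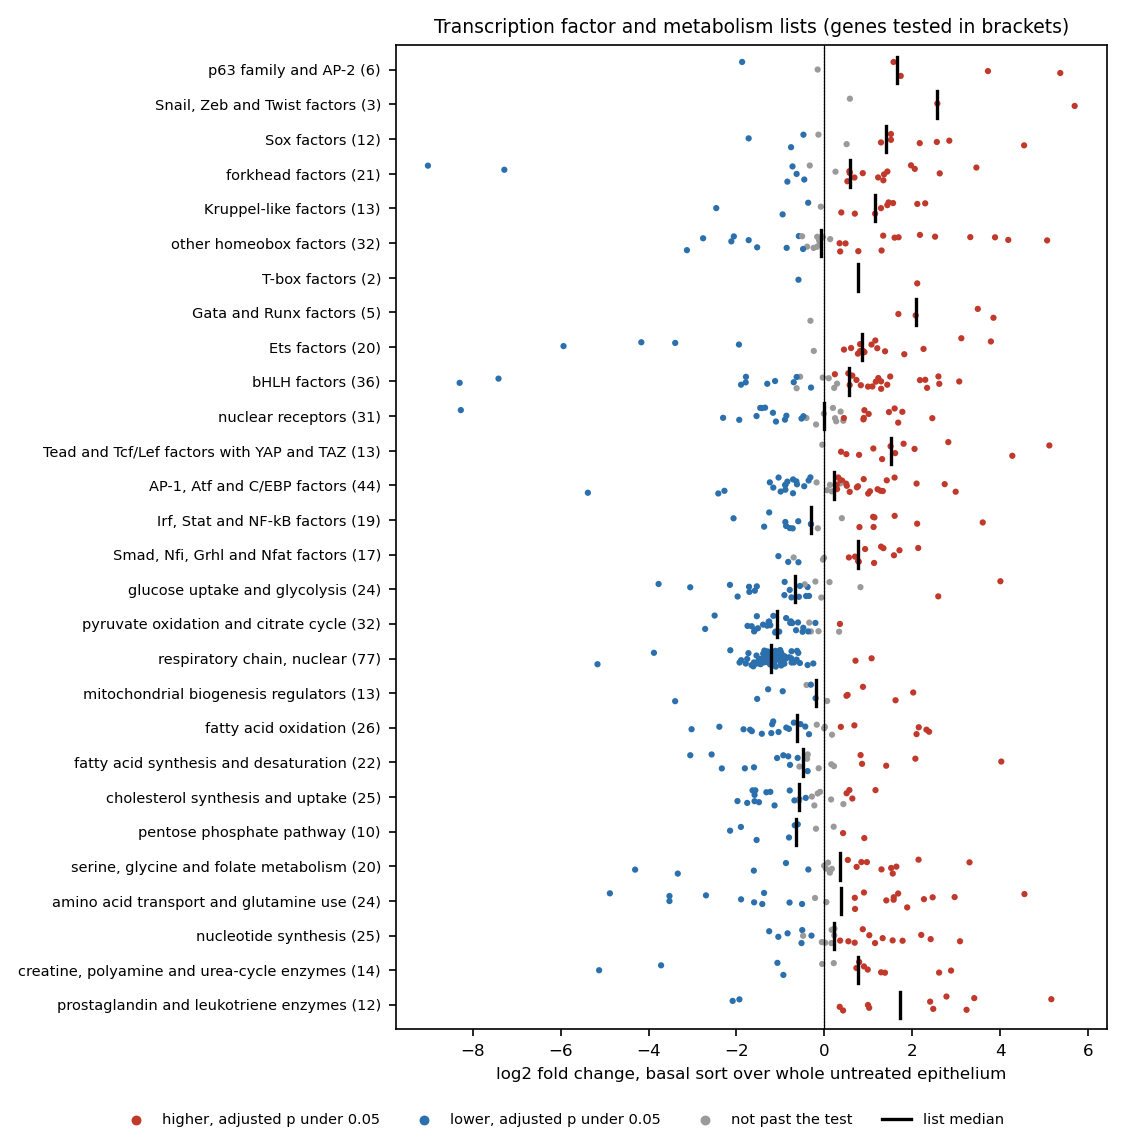
Log2 fold change of every tested gene of the transcription factor and metabolism lists other than the genes encoded in the mitochondrion, basal sort over whole untreated epithelium, with colours and bars as in the plot of receptors and ligands. The nuclear respiratory chain list lies almost wholly left of 0 (median -1.20), the Tead and Tcf/Lef list almost wholly right of it (median 1.51).

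Metabolic genes went the other way from signalling genes: 79 of 324 rose and 199 fell (median -0.71), leaving out genes encoded in the mitochondrion. The clearest group was the respiratory chain, which makes ATP in mitochondria. Of 77 nuclear genes of it 75 fell and 2 rose (median -1.20). Scaled by total UMIs, 64 of the 77 fell and 3 rose. Ndufb7, a subunit of complex I, stood at 63.9, 60.9 and 59.7 CPM against 300.2, 261 and 251 CPM. The mice of the 2 groups lay apart (log2 fold change -2.14 ± 0.10, edgeR adjusted p = 1.2e-07). The 13 genes encoded in the mitochondrion are a description only, since cells were chosen by their share of UMIs: mt-Co1, a subunit of complex IV, stood at 6596, 6163 and 5793 CPM against 15702, 15086 and 15114 CPM. Before filtering, the median mitochondrial share of a barcode was 5.19% in the sort, where 4418 of 5044 barcodes passed the limits on genes and mitochondrial share, and 19.3% in the whole epithelium, where 4093 of 8277 passed. The part of those limits in the respiratory chain values was not tested. Cox7a1, a subunit made in tissues rich in mitochondria, fell from 98.6 ± 16.1 to 2.74 ± 0.360 CPM and had 55.7% of its UMIs in ionocyte-like cells, while Cox7a2l, which helps assemble respiratory supercomplexes, rose to 419 ± 14.6 from 257 ± 12.3 CPM (log2 fold changes -5.16 ± 0.16 and 0.71 ± 0.08).

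The citrate cycle with pyruvate oxidation followed, with 27 of 32 lower and 1 higher (median -1.07), or 19 lower and 4 higher with total UMIs as the scale. Mdh1, malate dehydrogenase of the cytosol, stood at 159.7, 161 and 161 CPM against 594, 511 and 515 CPM (log2 fold change -1.75 ± 0.09, edgeR adjusted p = 2.1e-07). Dlst, a subunit of the oxoglutarate dehydrogenase complex, was the member that rose, at 46.0 ± 3.54 against 35.9 ± 0.893 CPM (log2 fold change 0.35 ± 0.08, edgeR adjusted p = 0.0039). With every cell thinned to 2000 UMIs it did not pass (adjusted p = 0.12). Regulators of mitochondrial biogenesis were not uniform, 5 of 13 higher and 6 lower (median -0.20, and 0.35 with total UMIs as the scale). Their master regulator Ppargc1a stood at 99.0 ± 11.2 against 191 ± 12.3 CPM (log2 fold change -0.95 ± 0.10).

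Glycolysis fell in 17 of 24 tested genes and rose in 2 (median -0.66), with 10 lower and 6 higher with total UMIs as the scale. The 2 risers stand at its entry and exit. Hk2, the inducible hexokinase that traps glucose, stood at 111, 100.2 and 113 CPM against 19.1, 20.1 and 14.5 CPM, and Slc16a1, a lactate carrier, at 9.47, 8.87 and 12.7 CPM against 0.442, 0.637 and 0.848 CPM. Neither overlapped between groups (log2 fold changes 2.59 ± 0.12 and 4.01 ± 0.27, edgeR adjusted p = 1.5e-07 and 1.1e-06). Tpi1, triosephosphate isomerase, and Ldhb, the lactate dehydrogenase of oxidative tissue, were lower, Ldhb at 48.7, 45.6 and 46.9 CPM against 434, 376 and 359 CPM (log2 fold changes -2.15 ± 0.09 and -3.05 ± 0.10). Ionocyte-like cells held 50.8% of the Ldhb UMIs of the whole epithelium. Pfkfb3, whose product stimulates glycolysis, fell from 32.4 ± 6.74 to 2.28 ± 0.913 CPM (log2 fold change -3.77 ± 0.25). The pentose phosphate pathway, a source of NADPH and ribose, fell in 6 of 10 cases and rose in 2 (median -0.64), or fell in 3 and rose in 4 (median -0.09) when scaled by total UMIs, G6pdx and Taldo1 having log2 fold changes of -2.14 ± 0.21 and -1.54 ± 0.13.

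Lipid pathways were mostly lower. Fatty acid oxidation fell in 16 of 26 cases and rose in 6 (median -0.62), and fatty acid synthesis fell in 11 of 22 and rose in 5 (median -0.48). Scaled by total UMIs, these medians were -0.07 and 0.07, where the median over all genes was 0.54. For synthesis the sign thus turns with the scale, while both lists stayed below the median of all genes. Acadl, an acyl-CoA dehydrogenase, stood at 71.0 ± 11.2 against 253 ± 8.60 CPM and Acsl5, an acyl-CoA synthetase, at 18.7 ± 0.808 against 94.2 ± 8.43 CPM (log2 fold changes -1.84 ± 0.12 and -2.33 ± 0.09). Fabp4, a fatty acid carrier, rose from 10.4, 27.4 and 10.1 CPM to 66.5, 39.3 and 101 CPM, but 97.3% of its UMIs in the sort lay in endothelial-like cells. Its log2 fold change was 2.10 ± 0.42 (edgeR adjusted p = 0.0013), 2.73 without whole mouse 2, and 3.08 without endothelial-like and fibroblast-like cells. Cholesterol synthesis and uptake fell in 14 of 25 cases and rose in 4 (median -0.58, and -0.03 with total UMIs as the scale). Fdps was lower at 19.1 ± 4.88 against 60.0 ± 1.55 CPM, while Hmgcs1, another enzyme of the pathway, was higher at 43.7 ± 3.29 against 19.5 ± 0.328 CPM (log2 fold changes -1.63 ± 0.15 and 1.16 ± 0.09).

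Serine and nucleotide pathways, which feed growing cells, had positive medians on either scale. Serine, glycine and folate metabolism rose in 10 of 20 cases and fell in 5 (median 0.35). Phgdh and Psat1, the first enzymes of serine synthesis, stood at 177, 171 and 189 CPM and 12.9, 12.7 and 16.5 CPM in the sort mice. In the whole mice they stood at 44.7, 38.9 and 37.9 CPM and 1.86, 1.59 and 0.754 CPM, well below (log2 fold changes 2.14 ± 0.10 and 3.30 ± 0.25, edgeR adjusted p = 1.1e-07 and 2.3e-06). Shmt1, a serine hydroxymethyltransferase, rose by 1.64 ± 0.13 on the log2 scale, and Aldh1l1, which consumes formyl-folate, had a log2 fold change of -3.33 ± 0.15. Nucleotide synthesis rose in 12 of 25 cases and fell in 6 (median 0.23). Ctps, the CTP synthase, led it at 43.4, 43.9 and 46.2 CPM against 6.28, 4.30 and 5.18 CPM (log2 fold change 3.09 ± 0.13, edgeR adjusted p = 7.9e-08). Cycling-like cells, 106 in the sort and 8 in the whole epithelium, held 5.6003% of the Ctps UMIs of the sort, near their 5.16% of all UMIs there. Ribosomal protein genes rose in 79 of 82 cases and fell in 1 (median 1.42), with Rpl12 at 2804 ± 98.9 against 641 ± 13.1 CPM (log2 fold change 2.13 ± 0.06).

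Amino acid transport and glutamine use rose in 12 of 24 cases and fell in 10. The glutamate carrier Slc1a3 was higher, at 16.9 ± 3.64 against 2.13 ± 0.307 CPM (log2 fold change 2.96 ± 0.21). Got1, an aspartate transaminase, Glul, the glutamine synthetase, and Asns, the asparagine synthetase, were lower, with log2 fold changes of -3.52 ± 0.14, -1.89 ± 0.16 and -1.597 ± 0.12. Among creatine, polyamine and urea-cycle enzymes 8 of 14 rose and 4 fell. Odc1, the rate-limiting enzyme of polyamine synthesis, had 233, 221 and 248 CPM against 44.7, 30.6 and 39.8 CPM (log2 fold change 2.61 ± 0.14, edgeR adjusted p = 2.7e-07). Ckmt1, the mitochondrial creatine kinase, and Arg1, an arginase, had 26.2, 34.0 and 26.0 CPM and 5.52, 2.82 and 3.13 CPM in the sort mice. The whole mice had 423, 357 and 347 CPM and 135, 152 and 129 CPM, so both were far lower in the sort (log2 fold changes -3.71 ± 0.14 and -5.12 ± 0.21, edgeR adjusted p = 5.8e-08 and 8e-08).

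Ckb, the creatine kinase of the cytosol, rose from 1.68, 5.41 and 1.22 CPM to 28.6, 12.1 and 21.8 CPM (log2 fold change 2.88 ± 0.46, edgeR adjusted p = 0.00033), and myoepithelial-like cells held 87.7% of its UMIs in the sort. Without those cells it was 0.41 with an adjusted p of 0.38, and without whole mouse 2 it was 3.83. Prostaglandin and leukotriene enzymes rose in 10 of 12 cases and fell in 2 (median 1.71). Hpgd, which inactivates prostaglandins, rose to 19.9 ± 1.48 from 3.57 ± 0.528 CPM, and the lipoxygenase Alox12 fell to 6.58 ± 0.745 from 28.2 ± 0.914 CPM (log2 fold changes 2.48 ± 0.14 and -2.09 ± 0.11).

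The basal class was then compared between the libraries on its own, which sets aside most of the difference in cell types. The sort gave 2597 basal duct-like cells and the whole epithelium 52, with 13, 21 and 18 per mouse, at median UMIs per cell of 12600.5 to 14896 and 12151 to 13975 over the mice. Both groups drew on the same 6 clusters, in other proportions: cluster 4 held 666 of the sort's cells and 3 of the whole's, cluster 2 held 743 and 20. Of 10296 genes tested, 340 were higher in the sort (3.30%) and 215 lower (2.09%; edgeR adjusted p under 0.05). The number ran from 164 to 423 higher and from 47 to 250 lower when each mouse was left out in turn (164 higher without sort mouse 1, 224 without sort mouse 3 and 210 without whole mouse 3, and 131, 120, 132 and 47 lower without sort mouse 1 and whole mice 1, 2 and 3). Without sort mouse 1, 2 or 3 only 3237, 3235 and 3239 genes were tested, so these counts are not of the same genes. Scaled by total UMIs, 237 were higher and 370 lower.

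Within the class 3 of 25 receptor tyrosine kinases, 2 of 10 integrins, 1 of 12 chemokines and none of 17 Wnt receptors rose, and none of these lists had a member that fell. The 2 integrins were Itga6, the gene of the Cd49f gate, and its partner Itgb4 (edgeR adjusted p = 0.0092 and 0.041). The gate on Cd49f still separates the groups within the class, so the rise of Itga6 is no independent result. Hes1, Jag1, Vcam1, Cxcl2, Lif and the saliva genes below follow the naming rule for this test, and the others were chosen after their values were seen, for their place in the lists above. Many genes that differed widely over all cells did not pass the test here. Among them were Il18r1, F2r, Fas, Igfbp2 and Dll1 (edgeR adjusted p = 0.19, 0.055, 0.84, 0.29 and 0.98). Cxcl10 and Il18, higher in the sort over all cells, had log2 fold changes of -0.27 and -0.57 here and did not pass (edgeR adjusted p = 0.60 and 0.31). Levels of 3 more such genes follow. Ptn stood at 1273 ± 294 CPM in basal duct-like cells of the sort and 1777 ± 226 CPM in those of the whole epithelium, Smoc2 at 552 ± 8.82 against 536 ± 70.7 CPM and Tnfrsf12a at 1409 ± 235 against 1218 ± 104 CPM. Among those that did pass, Hes1 had 1556, 1228 and 1756 CPM against 199.9, 203 and 317 CPM, with a log2 fold change of 2.65 ± 0.18 (edgeR adjusted p = 1.2e-08). The Notch ligand Jag1 had 40.8, 36.1 and 61.6 CPM against 16.7, 7.38 and 11.7 CPM (log2 fold change 2.03 ± 0.51, edgeR adjusted p = 0.026), where the whole cells held 8 UMIs in all. That call was lost without whole mouse 2 (adjusted p = 0.093) or whole mouse 3 (0.097) and at Leiden resolution 0.5 (0.057). Fgfr1 kept its direction, at 107, 102 and 118 CPM against 49.97, 29.5 and 23.4 CPM (log2 fold change 1.74 ± 0.27, edgeR adjusted p = 0.00085). The adhesion receptor Vcam1 had 53.1, 55.1 and 50.3 CPM against 27.8, 11.1 and 0 CPM (2.21 ± 0.46, and 3.32 without whole mouse 1).

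Secreted signals with few whole counts were Cxcl2, with 2445 UMIs in basal duct-like cells of the sort and 1 in those of the whole epithelium, and Lif, with 1434 and 2. In the whole epithelium 90.2% of all Cxcl2 UMIs and 75.8% of all Lif UMIs lay in intercalated duct-like cells. As shares of the class's UMIs, without TMM scaling, their levels differed by a factor of 44.4 for Cxcl2 (95% interval 7.96 to 1754) and 13.0 for Lif (3.60 to 108), counting error only. Since all these whole UMIs came from whole mouse 2, the fitted log2 fold changes of 5.52 and 3.82 became 11.90 and 11.19 without it. Tgfb2 was higher at 295, 289 and 319.9 against 88.8, 159 and 152 CPM (log2 fold change 1.14 ± 0.18, edgeR adjusted p = 0.0014). Transcription factors that passed and lay higher were Ets1 (1.42 ± 0.27, and 2.08 without whole mouse 2), Klf5 (1.11 ± 0.19), Runx1 (1.04 ± 0.21) and Nfkb1 (1.001 ± 0.20) on the log2 scale. Sox9, whose fall over all cells depended on the processing, was higher within the class, at 291, 204 and 362 CPM against 199.9, 84.9 and 86.0 CPM. Its log2 fold change was 1.29 ± 0.27 (edgeR adjusted p = 0.01), and the call was lost without sort mouse 1 (0.077), sort mouse 3 (0.064) or whole mouse 3 (0.061). Tead1 and Yap1 rose by 1.31 ± 0.28 and 0.93 ± 0.25, Tead1 with 1.93 without whole mouse 1 and an adjusted p of 0.061 without whole mouse 3. Yap1 lost its call without sort mouse 1 (0.055), whole mouse 2 (0.052) or whole mouse 3 (0.098), with total UMIs (0.061) and with the replicate block (0.07).

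In metabolism Hk2 and Odc1 were higher within the class, at 139.6, 133 and 146 CPM against 44.4, 92.3 and 62.5 CPM and 295, 303 and 321 CPM against 133, 151 and 145 CPM (log2 fold changes 1.02 ± 0.22 and 1.09 ± 0.16, edgeR adjusted p = 0.011 and 0.00061). The nuclear respiratory chain stayed lower in part, with 29 of 76 genes down and 1 up (median -0.43). The genes of the chain encoded in the mitochondrion did not: 4 of 13 rose and none fell (median 0.19), again a description only. Ldhb and Ndufb7 were lower, at 57.7, 49.4 and 54.1 against 144, 62.7 and 192 CPM and 67.3, 65.3 and 63.3 against 111, 103 and 195 CPM (log2 fold changes -1.28 ± 0.26 and -1.08 ± 0.21). Whole mouse 3 was the highest in both, and without it neither passed (adjusted p = 0.21 for Ldhb and 0.17 for Ndufb7). Without whole mouse 1 Ldhb had an adjusted p of 0.056. The part of free RNA from other cell classes in the falls of the respiratory chain and of Ldhb was not tested. Ribosomal protein genes rose in 37 of 82 cases, and none fell.

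Lower in basal duct-like cells of the sort were Fos at 371, 499 and 235 against 1216, 771 and 1184 CPM, Klf2 at 19.7, 24.6 and 13.7 against 55.5, 118 and 74.3 CPM and Irf1 at 54.0, 82.0 and 31.2 against 261, 218 and 109 CPM. Their log2 fold changes were -1.52 ± 0.22, -2.16 ± 0.32 and -1.79 ± 0.34 (edgeR adjusted p = 0.0005, 0.00068 and 0.0046), and Irf1 did not pass without whole mouse 1 (0.052). By far the largest falls were those of saliva genes. Mucl2 had 118, 113 and 135 CPM in the sort's and 5974, 8973 and 5311 CPM in the whole's basal duct-like cells, and Smgc, a submandibular gland protein whose locus is shared with Muc19, 0.329, 2.20 and 0.167 against 261, 258 and 211 CPM. Pip and Car6, other secreted proteins of saliva, also lay lower, and the 4 log2 fold changes were -5.79 ± 0.17, -8.31 ± 0.41, -6.48 ± 0.30 and -6.39 ± 0.27 (Smgc -9.84 without sort mouse 2). In the whole library these genes lay at a like level in other classes too: Mucl2 had 7115 CPM in basal duct-like, 5736 in granular duct-like and 9849 in ionocyte-like cells, and Pip had 218, 211 and 239. Klk1, a top gene of a granular duct-like cluster, was lower too within the basal class, at 220 ± 205 against 702 ± 137 CPM (log2 fold change -1.67 ± 0.42, edgeR adjusted p = 0.025). The part of free RNA in these falls was not tested.

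**Figure D5:**
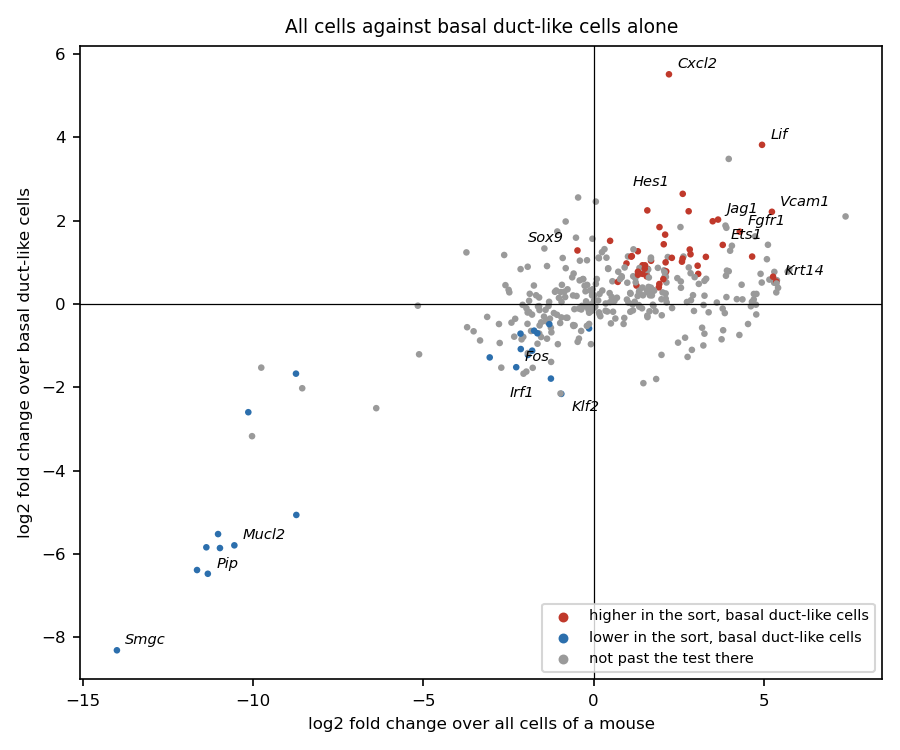
Log2 fold change (basal sort over whole untreated epithelium) of 362 genes, over all cells on the x axis and within basal duct-like cells on the y axis. Each point is 1 gene, coloured where it passed the test within the class. The genes are those of the naming rule, many of them picked for a large fold change over all cells. Most genes lie between -2 and 2 on the y axis over a wide range of the x axis, Hes1, Fgfr1 and Jag1 lie to the upper right, and saliva genes such as Smgc and Mucl2 to the lower left.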

How the data were processed

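The deposited files hold gene counts (UMIs) per barcode; per the submitters' processing notes the authors made them with Cell Ranger 6.1.2 on build mm10. A barcode was kept with 500 or more genes and no more than 20% mitochondrial UMIs. Mice were assigned with HTODemux (Seurat 5.3.0, quantile 0.99, 5 starting clusters), dropping hashtag doublets (231 in the sort, 150 in the whole epithelium) and uncalled barcodes. Counts were summed per mouse and tested with edgeR 4.0.16 (quasi-likelihood, TMM, filterByExpr, adjusted p under 0.05; glmTreat for 2-fold), tested on simulated data. Folds are log2 ± SE, sort over whole. DESeq2 1.42.0 and total-UMI scaling were alternatives. Clusters came from scanpy 1.11.5 (Leiden, resolution 1) and were named by marker lists. Genes were named by rule: the markers and gated genes; per list up to 4 with the largest rise and 4 with the largest fall past the test, at a mean of 5 CPM or more without overlap, and the most abundant not past it; the 10 largest CPM differences per direction; and, within the class, the 8 largest folds per direction at 20 CPM or more without overlap (both without Gm, Rik, mt- and ribosomal protein names); some genes so named are covered by list counts only. The members and lists were chosen with earlier results of these data known. Labels name separate mice, but each group is 1 library, so p-values measure the spread between mice within a library. Promoters came from RefSeq.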

Additional observations from a re-analysis of the deposited data

How the results depend on the processing

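Of 2916 gene values recomputed over all cells (146 genes under each alternative that could test them), 2905 kept their direction and side of the threshold, 5 lost the call, 4 gained it and 2 reversed: Sox9 became 0.0673 on the log2 scale with total UMIs as the scale, and Cxcl2 became -0.24 with mice assigned by hashtag share. Most of the 146 genes were picked for a large fold past the test, so these counts do not measure the stability of all calls. With cells thinned to 2000 UMIs, 8897 genes were tested and 2737 were higher and 2603 lower, of which 926 and 824 lay beyond 2-fold. With total UMIs as the scale 7056 were higher and 2676 lower, 3626 and 980 beyond 2-fold. DESeq2 gave 4552 higher and 4255 lower (1485 and 1259 beyond 2-fold). A limit of 10% mitochondrial UMIs per cell moved 47 of the 146 genes' folds by over 1.5 times, thinning 29 and hashtag shares 15. Hashtag shares kept 89, 829 and 91 cells of whole mice 1, 2 and 3. Leaving out each mouse in turn gave 4478 to 4808 higher and 4542 to 4923 lower, beyond 2-fold 1871 to 2191 and 1747 to 2054. Within basal duct-like cells the ranges were 164 to 423 higher and 47 to 250 lower, lowest without sort mouse 1 and whole mouse 3. There DESeq2 gave 482 lower and total UMIs 370 lower, and 233 of 255 gene values kept their call while 22 lost it. The replicate block (same-numbered mice paired) gave 4678 higher and 4653 lower over all cells, 2021 and 1813 beyond 2-fold, and 333 and 180 within the basal class. The deviations of same-numbered mice correlated at -0.040, -0.061 and -0.019, which shows no sign of pairing. As the libraries differ in cell types, these values cannot exclude that same-numbered mice are the same animals. The cause of these moves was not tested, except that fewer genes were tested after thinning (8897 in place of 12950) and, within the basal class, without a sort mouse (3235 to 3239 in place of 10296). The basal class of the whole epithelium has 52 cells, which limits that comparison.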
